A study of Mus musculus with 3 samples.

Results

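Esam and 7 adhesion molecules of the same kind (F11r, Jam2, Jam3, Pecam1, Icam1, Icam2 and Alcam) were followed across dendritic cells (DCs) sorted from mouse spleen. The genes were chosen by symbol, and each had 1 probe set that the platform annotation assigns to that gene alone, so the set is 8 probe sets of 8 genes, out of 19938 genes measured. Esam, a surface protein of cell junctions, was itself used in the sort: its values describe the gate and are not a finding about the cells.

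The Cx3cr1-GFP reporter and floxed Rbpj alleles (RBPJflox/flox) were present in all mice. In the RBPJ-null group, a CD11c-Cre transgene deletes Rbpj in cells that express the DC integrin CD11c; the controls were littermates that lacked Cre. Spleens of 2 to 3 mice were pooled, lymphoid and erythroid cells were removed magnetically, and CD11c(high) CD11b+ cells were sorted. By stain, the CD11b+ DCs of the RBPJ-null mice were all Esam(lo) GFP(hi), and the controls gave an Esam(hi) GFP(lo) and an Esam(lo) GFP(hi) sample. Strain background, sex and age were not used here. Each of the 3 groups was measured on 1 Affymetrix Mouse Gene 1.0 ST array, so no difference below has a replicate check and no p-value is given.

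These proteins belong to the immunoglobulin superfamily and hold cells to one another or to the vessel wall. Esam and the junctional adhesion molecules (JAM-A, JAM-B and JAM-C, encoded by F11r, Jam2 and Jam3) sit at endothelial and epithelial junctions, bind each other across the gap, and are tied to scaffold proteins inside the cell. The ICAM proteins are ligands of the leukocyte integrin LFA-1, which lets T cells hold on to the DCs that present antigen to them. Esam marks the CD11b+ splenic DCs that depend on Notch2 signalling, for which RBPJ is the nuclear partner.

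Values are log2 expression values as deposited. A gene was called above background when it exceeded the level that 95% of 1194 odorant and pheromone receptor genes, which most tissues do not express, stayed under on the same array. That level was 6.87 on the array labelled RBPJ-null, 7.17 on the control Esam(hi) array and 6.76 on the control Esam(lo) array. Of all genes, 45.7% were above it on the array labelled RBPJ-null, 41.0% on the control Esam(hi) array and 47.8% on the control Esam(lo) array. Genes were counted as apart when they differed by at least 2-fold and the brighter array was above its background. Levels of different genes are not set against each other, because probe sets differ in brightness for reasons other than expression. Fewer expressing cells and less RNA per cell cannot be told apart in these bulk samples.

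The samples were checked first. All 10 classical DC markers, among them Itgax (CD11c), Flt3, Zbtb46 and the MHC class II genes H2-Aa and H2-Ab1, were above background on every array. Itgax read 12.44 on the array labelled RBPJ-null, 12.36 on the control Esam(hi) array and 12.50 on the control Esam(lo) array. Rbpj, the targeted gene, read 10.04 on the array labelled RBPJ-null and 9.85 on both control arrays, and was thus not lower there. Whether its probes read the deleted exons could not be settled, so the array is called by its label throughout. The reporter gene Cx3cr1 read 9.58 on the array labelled RBPJ-null, 8.32 on the control Esam(hi) array and 9.58 on the control Esam(lo) array. CD11c was used in the sort and the samples were described by Cx3cr1-GFP, so the values of Itgax and Cx3cr1 are not independent checks. Dtx1, a target of Notch signalling, read 8.56 on the array labelled RBPJ-null, 11.25 on the control Esam(hi) array and 9.55 on the control Esam(lo) array.

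Promoter sequences from RefSeq (GRCm38.p6) were held for 3 of the 8 genes, F11r, Icam1 and Alcam, each above background on every array, F11r by only 0.09 on the control Esam(hi) array. They are shown as the members both detected and held in that table. The lines below give the 100 bases before each transcription start, 5′ to 3′ on the gene's strand, with each CpG in capitals.
F11r, chr1:171437461-171437560, plus strand: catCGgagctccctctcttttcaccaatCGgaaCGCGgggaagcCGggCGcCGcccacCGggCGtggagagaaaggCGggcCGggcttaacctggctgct
Icam1, chr9:21015840-21015939, plus strand: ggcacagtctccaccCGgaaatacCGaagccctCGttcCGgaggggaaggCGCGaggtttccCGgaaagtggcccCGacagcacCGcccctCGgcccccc
Alcam, chr16:52453082-52453181, minus strand: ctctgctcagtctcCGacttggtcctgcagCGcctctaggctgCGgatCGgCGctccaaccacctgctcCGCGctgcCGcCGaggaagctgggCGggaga
Over the whole window of 300 bases (250 before the start and 50 after it) the F11r and Icam1 promoters each held 19 CpGs and the Alcam promoter 25, where the median of all 32851 promoters was 7. The windows were searched on both strands for the RBPJ motif as TGGGAA and as the longer GTGGGAA, which contains it. The shorter form was found in 1 of the 3 windows, F11r, on the opposite strand, and in 25.6% of all promoters. It lies at base 35 after the F11r start, in capitals as read on the gene's strand:
F11r, chr1:171437583-171437610, plus strand: atcgcgaggctgTTCCCAttggagttgc
The longer form was in none of the 3 windows and in 6.38% of all promoters. A match in letters is not evidence of binding.

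Esam had a value of 6.12 on the array labelled RBPJ-null, 7.79 on the control Esam(hi) array and 6.57 on the control Esam(lo) array. Only the control Esam(hi) value was above background, by 0.62, and both Esam(lo) samples were below it. The transcript thus followed the surface stain by which the cells were sorted. Against the control Esam(lo) array the Esam(hi) value was at least 2.04-fold higher, a lower bound taken at the background of the dimmer array (log2 difference of the deposited values 1.22). On the array labelled RBPJ-null Esam was at least 1.89-fold lower than on the control Esam(hi) array, a bound short of 2-fold although the deposited values differed by -1.67. The difference between the arrays of Esam(lo) cells, labelled RBPJ-null minus control, was -0.45, but neither value was above background, so no fold is given.

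**Figure D1:**
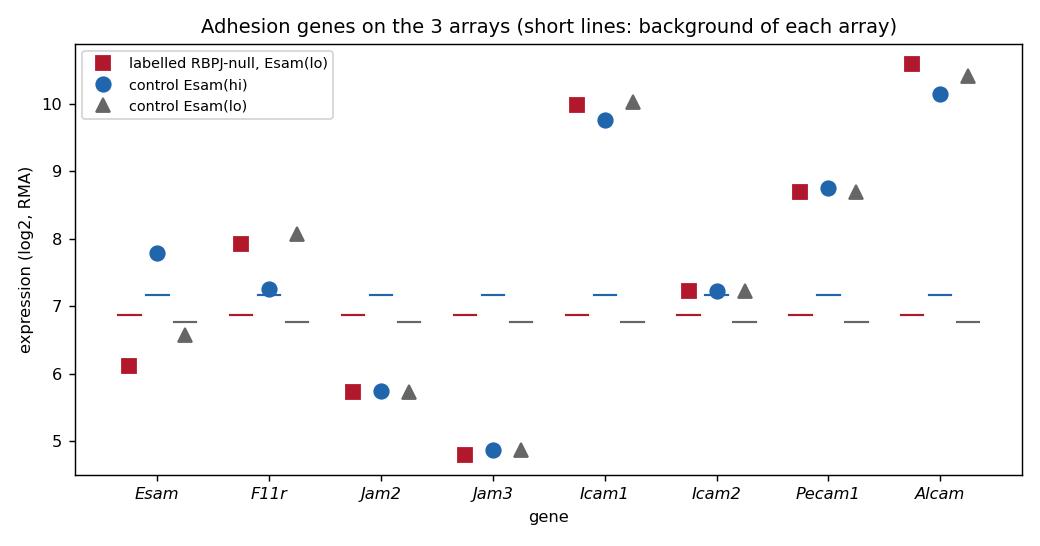
Log2 expression of the 8 genes on the array labelled RBPJ-null (squares), the control Esam(hi) array (circles) and the control Esam(lo) array (triangles), with 1 array per group and no error bars. Short lines mark each array's background: Esam lies above it on the control Esam(hi) array alone (7.79), while Jam2 and Jam3 lie below it on all 3 arrays.

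Between the control arrays, Esam was the single member at least 2-fold higher in Esam(hi) cells, and no member was 2-fold lower. Among the 9466 genes tested in that comparison, 0.792% were 2-fold higher and 11.3% were 2-fold lower. Between the array labelled RBPJ-null and the control Esam(hi) array Esam was again the 1 member counted, as lower by the deposited values, where 1.18% of 9312 genes were 2-fold lower and 12.9% were 2-fold higher. The array labelled RBPJ-null and the control Esam(lo) array had 0 members 2-fold apart, where 0.0734% of 9541 genes were 2-fold higher and 0.189% were 2-fold lower. The comparisons share arrays, so their values for a gene are not separate observations.

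No JAM gene was 2-fold apart in any comparison. F11r encodes JAM-A, which leukocytes and platelets carry as well as junctions. It read 7.93 on the array labelled RBPJ-null, 7.26 on the control Esam(hi) array and 8.07 on the control Esam(lo) array. Both Esam(lo) samples were high, and the Esam(hi) value lay 0.09 above its background, so F11r was lowest where Esam was highest. F11r was 1.76-fold lower in control Esam(hi) cells than in control Esam(lo) cells (log2 difference -0.82). It was 1.59-fold higher on the array labelled RBPJ-null than on the control Esam(hi) array (0.67). Neither difference reached 2-fold, and 1746 of the 9466 genes tested between the control arrays had a more negative one. Between the arrays of Esam(lo) cells F11r differed by -0.15, labelled RBPJ-null minus control.

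Jam2 and Jam3, which encode the binding partners JAM-B and JAM-C of vascular endothelium, were below background on every array. Jam2 read 5.73 on the array labelled RBPJ-null, 5.75 on the control Esam(hi) array and 5.73 on the control Esam(lo) array. Jam3 read 4.79 on the array labelled RBPJ-null and 4.87 on both control arrays. Neither transcript was detectable above background in any of the samples, and no fold is given for them.

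Monocyte and macrophage markers, like F11r, were lowest on the control Esam(hi) array. Of the 11 measured markers 10 entered the comparison. All 10 were lower in control Esam(hi) cells than in control Esam(lo) cells, 7 of them at least 2-fold, with a median difference of -2.43. Of all genes tested, 11.3% were 2-fold lower, and the median was -0.30. With the dependence of differences on level removed (described below), 6 markers were 2-fold lower, as were 5.14% of all genes. Adgre1 (0.22) and Vcam1 (0.016) were then higher. The summed linear level of the monocyte and macrophage markers was 21053.3 on the array labelled RBPJ-null, 4993 on the control Esam(hi) array and 21258.5 on the control Esam(lo) array. Lyz2, the lysozyme of myeloid cells, read 13.20 on the array labelled RBPJ-null, 9.97 on the control Esam(hi) array and 13.06 on the control Esam(lo) array. The summed markers of neutrophils, CD8+ DCs, NK cells and plasmacytoid DCs were lowest on the control Esam(hi) array too. So were those of the classical DCs that were sorted, at 63027 on the array labelled RBPJ-null, 56116 on the control Esam(hi) array and 62971 on the control Esam(lo) array. Of the 10 classical DC markers, 7 were lower in control Esam(hi) cells than in control Esam(lo) cells, 2 were higher and 1 tied. Ccr7 was higher by 0.74 (log2) and Irf4 by only 0.0007. None of the 10 was 2-fold apart, and their median difference was -0.19, and 0.11 with the level trend removed. The summed markers of plasmacytoid DCs reached 974 on the array labelled RBPJ-null, 534 on the control Esam(hi) array and 937 on the control Esam(lo) array. Those of neutrophils reached 15012 on the array labelled RBPJ-null, 6722 on the control Esam(hi) array and 13524 on the control Esam(lo) array, but 2 of the 8 went the other way: Elane and Mpo, enzymes of early neutrophil granules, were higher in control Esam(hi) cells than in control Esam(lo) cells, by 0.35 and 0.96 (log2). Those of CD8+ DCs reached 3776 on the array labelled RBPJ-null, 911 on the control Esam(hi) array and 3717 on the control Esam(lo) array. Those of NK cells reached 2048 on the array labelled RBPJ-null, 925 on the control Esam(hi) array and 2085 on the control Esam(lo) array. Few genes carry some of these sums. Only Klrd1 and Klrk1 of the 5 NK cell markers were above background on any array, and only Tcf4 of the 3 plasmacytoid DC markers. Siglech and Ly6d, the other plasmacytoid DC markers, were below background and read slightly higher on the control Esam(hi) array. Among the 5 CD8+ DC markers, Xcr1 and Cd8a were below background on all 3 arrays. The B cell sum was instead highest in control Esam(hi) cells. It was 1708 on the array labelled RBPJ-null, 1969 on the control Esam(hi) array and 1883 on the control Esam(lo) array. Of 3 B cell markers compared between the control arrays, 2 were higher in Esam(hi) cells. Cd79b went the other way, 1.89-fold lower in control Esam(hi) cells than in control Esam(lo) cells. The T cell sums were 788 on the array labelled RBPJ-null, 795 on the control Esam(hi) array and 787 on the control Esam(lo) array. They were close, and only 2 of the 5 T cell markers were above background, so their order is not read. The erythroid sum was also highest in control Esam(hi) cells, but no erythroid marker was above background. The part of these cell types in the F11r difference was not tested.

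Icam1 and Icam2 were above background on every array, and neither was 2-fold apart in any comparison. Icam1 is the inducible LFA-1 ligand that inflammatory signals raise on antigen-presenting cells. It read 9.98 on the array labelled RBPJ-null, 9.76 on the control Esam(hi) array and 10.03 on the control Esam(lo) array. The control Esam(hi) value was lowest, by a log2 difference of -0.27 from the control Esam(lo) array, which is close to the median of all genes tested between them (-0.30). Between the arrays of Esam(lo) cells Icam1 differed by -0.05. Icam2, the ligand that cells carry without induction, read 7.22 on the array labelled RBPJ-null, 7.23 on the control Esam(hi) array and 7.22 on the control Esam(lo) array. The Icam2 value of the control Esam(hi) array was only 0.06 above background.

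Pecam1 (CD31) binds to itself across cell borders and is found on endothelium, platelets and many leukocytes. It read 8.69 on the array labelled RBPJ-null, 8.76 on the control Esam(hi) array and 8.69 on the control Esam(lo) array. The control Esam(hi) value was the highest by 0.07, where the smoothed difference of genes at its level was -0.40; with each array centred on its median the Pecam1 difference was -0.04, of the opposite sign. Pecam1 and Icam2 had exactly equal values on both arrays of Esam(lo) cells, as did 52.0% of all genes. Ties made up 21.8% of genes between the control arrays and 21.2% between the array labelled RBPJ-null and the control Esam(hi) array. The cause of the ties was not tested, and equal values are not read as equal expression.

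Alcam (CD166) is the ligand of CD6, a T cell surface protein, and takes part in contacts between DCs and T cells. It read 10.60 on the array labelled RBPJ-null, 10.14 on the control Esam(hi) array and 10.41 on the control Esam(lo) array. The array labelled RBPJ-null was the highest, 1.14-fold above the control Esam(lo) array (log2 difference 0.19) and 1.37-fold above the control Esam(hi) array (0.46). Of the 9541 genes tested between the arrays of Esam(lo) cells, 608 had a more positive difference than Alcam. Cd6 was below background on all 3 arrays, with a value of 6.62 on each.

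**Figure D2:**
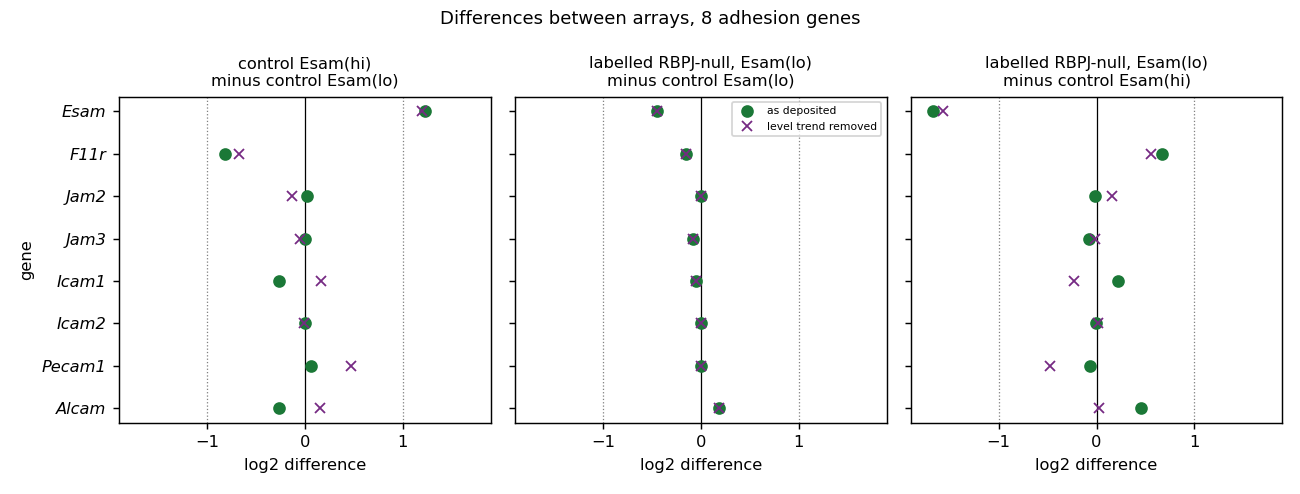
Log2 differences of the 8 genes in each comparison, as deposited (circles) and after subtraction of the level trend (crosses); dotted lines mark 2-fold and there are no replicates for error bars. Esam lies beyond the 2-fold lines in both comparisons that use the control Esam(hi) array, and no gene does between the arrays of Esam(lo) cells.

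Differences between arrays of unlike brightness depended on level. On the control Esam(hi) array bright genes tended to read lower and dim genes slightly higher than on the Esam(lo) array: the fitted trend was 0.03 at the level of Esam, -0.14 at that of F11r and -0.43 at that of Icam1. With the trend removed the Esam(hi) minus Esam(lo) difference was 1.19 for Esam and -0.68 for F11r, which kept their signs. Those of Icam1 (0.16) and Alcam (0.15) turned positive, and that of Pecam1 was 0.47. For the array labelled RBPJ-null minus the control Esam(hi) array the values were -1.57 for Esam, 0.55 for F11r, -0.48 for Pecam1, -0.23 for Icam1 and 0.03 for Alcam. By these values, and not by the bound of 1.89-fold given above for the second comparison, Esam was the 1 member past 2-fold in each, with 1.9% of genes 2-fold higher and 5.14% lower in the first, and 6.09% higher and 2.39% lower in the second.

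**Figure D3:**
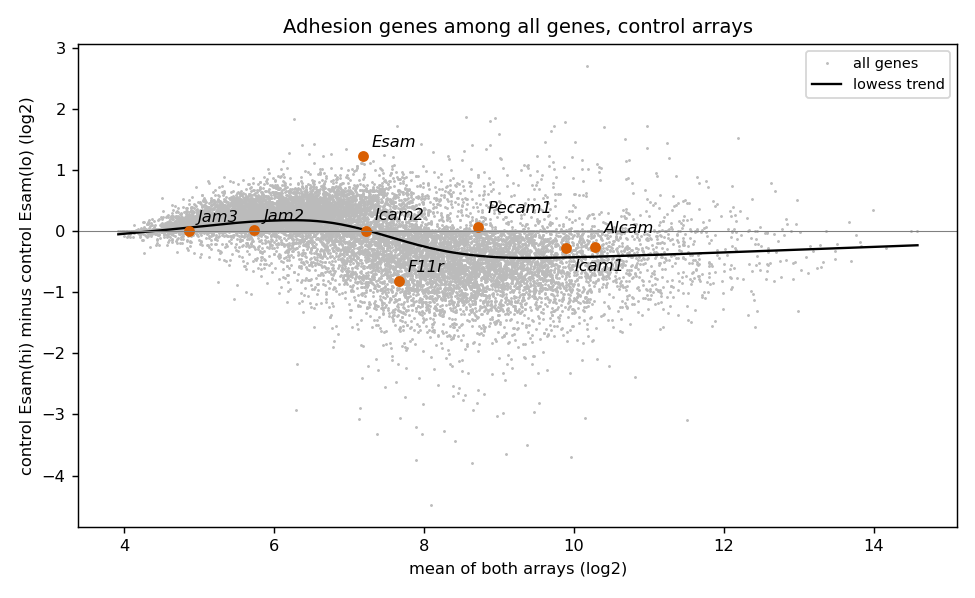
Difference between the control Esam(hi) and control Esam(lo) arrays (log2, vertical axis) against the mean of both (log2, horizontal axis) for all genes (grey), with the lowess trend (line) and the 8 adhesion genes (orange). Esam stands 1.19 above the trend and F11r stands 0.68 below it; Icam1 and Alcam lie near it.

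Over the 6 members tested between the control arrays, 3 were higher in Esam(hi) cells and 3 were lower, with a median difference of -0.13, against -0.30 for all genes tested. Between the array labelled RBPJ-null and the control Esam(lo) array 1 of 5 was higher, 2 were lower and 2 tied, and the median was 0.00 for the members and for all genes. Between the array labelled RBPJ-null and the control Esam(hi) array the median was 0.11 over 6 members, 3 higher and 3 lower, and 0.31 over all genes.

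Endothelium and platelets also carry Esam, so their markers were read beside it. Of 14 endothelial markers, 2 were above background on the array labelled RBPJ-null, 1 on the control Esam(hi) array and 2 on the control Esam(lo) array. These were Vwf, which makes von Willebrand factor, and Flt1, a receptor for vascular growth factor. Cdh5, the cadherin of endothelial junctions, read 5.72 on the array labelled RBPJ-null, 5.98 on the control Esam(hi) array and 5.82 on the control Esam(lo) array, all below background. Tek, Tie1, Emcn, Plvap, Robo4 and Kdr were below background on all 3 arrays as well. The summed linear level of the 14 markers was 1005 on the array labelled RBPJ-null, 1189 on the control Esam(hi) array and 1052 on the control Esam(lo) array. Most of these markers were below background. The background itself was highest on the control Esam(hi) array (7.17, against 6.87 labelled RBPJ-null and 6.76 control Esam(lo)). The order of these sums is therefore not read as more or less endothelium.

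Of 7 platelet markers measured, 1 was above background on the array labelled RBPJ-null, 2 on the control Esam(hi) array and 1 on the control Esam(lo) array. Treml1, a receptor of platelet granules, read 7.00 on the array labelled RBPJ-null, 7.70 on the control Esam(hi) array and 7.10 on the control Esam(lo) array. Itga2b, the platelet integrin chain CD41, read 6.72 on the array labelled RBPJ-null, 7.22 on the control Esam(hi) array and 6.59 on the control Esam(lo) array. Both were thus highest on the array on which Esam was highest, by less than 2-fold. The chemokine genes Pf4 and Ppbp, among the most abundant platelet transcripts, and Gp9 and Gp5 of the von Willebrand receptor were below background on all 3 arrays. The summed level of the 7 markers was 529 on the array labelled RBPJ-null, 674 on the control Esam(hi) array and 531 on the control Esam(lo) array. Both arrays of Esam(lo) cells were the lower ones. Most of the 7 were below background, which was itself highest on the control Esam(hi) array, so this order is not read as more platelet RNA. Col1a1, Col1a2 and Ccl19, 3 of 7 stromal markers measured, were above background on every array and highest on the control Esam(hi) array. Ccl19 was 1.95-fold above the control Esam(lo) array and 2.26-fold above the array labelled RBPJ-null, the only stromal difference past 2-fold. Of all genes, 1.18% were 2-fold lower on the array labelled RBPJ-null than on the control Esam(hi) array. With the level trend removed Ccl19 passed 2-fold in both comparisons (1.17, and -1.35 for labelled RBPJ-null minus control Esam(hi)) and Col1a1 in the second (-1.20). With the trend removed 1.9% of all genes were 2-fold higher in the first comparison and 2.39% were 2-fold lower in the second. The 7 stromal markers summed to 647 on the array labelled RBPJ-null, 1085 on the control Esam(hi) array and 710 on the control Esam(lo) array. The part of endothelium, platelets or stroma in the Esam difference was not tested.

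**Figure D4:**
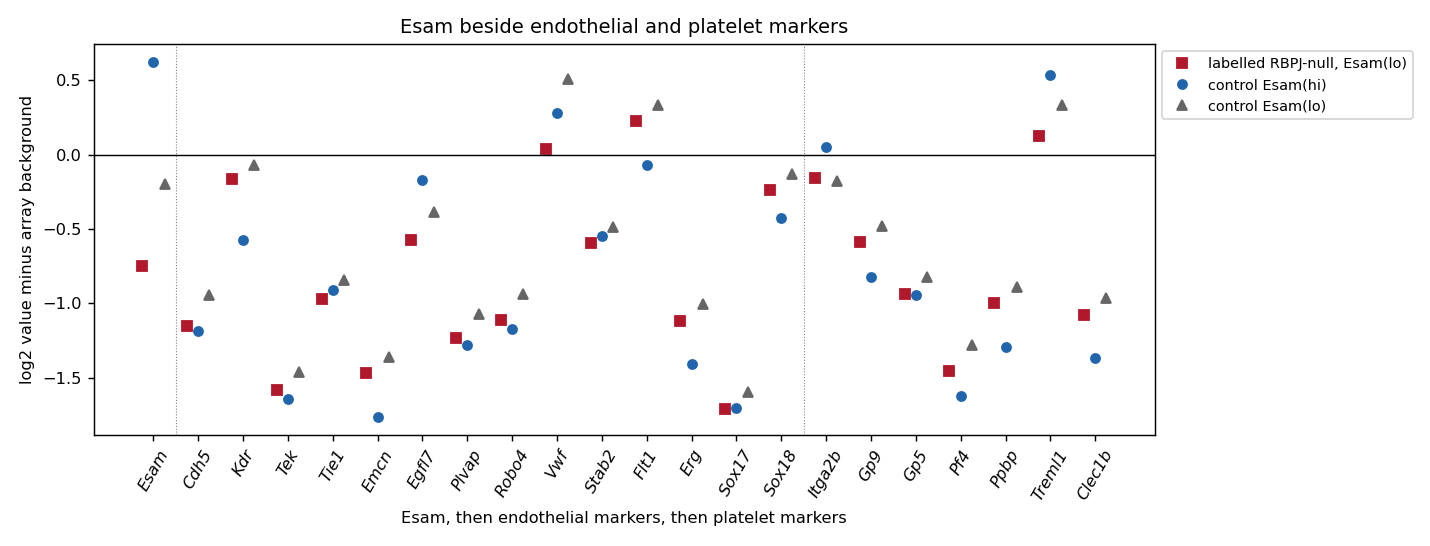
Log2 values minus the background of the same array for Esam, 14 endothelial markers and 7 platelet markers on the array labelled RBPJ-null (squares), the control Esam(hi) array (circles) and the control Esam(lo) array (triangles). Esam stands 0.62 above background on the control Esam(hi) array, where Vwf, Itga2b and Treml1 are the only markers above the line.

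The integrins that bind these molecules were measured next. Of 10 extracellular binding partners, 9 were above background, and all 9 were lower in control Esam(hi) cells than in control Esam(lo) cells, 2 of them at least 2-fold (median -0.56), where 11.3% of all genes were 2-fold lower and the median of all genes was -0.30. Itgal, the LFA-1 chain that binds the ICAM proteins and JAM-A, read 10.15 on the array labelled RBPJ-null, 9.31 on the control Esam(hi) array and 10.55 on the control Esam(lo) array. Itgam, the Mac-1 chain that binds ICAM-1 and JAM-C, read 10.79 on the array labelled RBPJ-null, 9.50 on the control Esam(hi) array and 10.57 on the control Esam(lo) array. Both arrays of Esam(lo) cells were the higher ones for each of these genes. Itgam (CD11b) and Itgax (CD11c), both among the 9, encode proteins used in the sort. Itgb1 differed by -0.86 and Cd177, whose protein binds PECAM-1, by -0.77. With the level trend removed none of the 9 was 2-fold apart, the median was -0.24, and Itga4 (0.34), Itgax (0.20) and Itgav (0.08) were higher in control Esam(hi) cells. Between the array labelled RBPJ-null and the control Esam(lo) array 3 were higher, 4 lower and 2 tied, with none 2-fold apart and Itgal lowest at -0.41. Against the control Esam(hi) array 8 were higher on the array labelled RBPJ-null and 1 tied. Itgam was the 1 gene past 2-fold (2.45-fold), though not with the trend removed (0.86 on the log2 scale). Of all genes, 12.9% were 2-fold higher in that comparison.

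The scaffold and signalling proteins bound to the inner tails of these receptors were divided by detection. Of 18 measured, 12 were above background on at least 1 array. The junction scaffolds Magi1, which binds Esam, and Tjp1 and Pard3, which bind the JAM proteins, were below background on all 3 arrays. Afdn (afadin), another junction scaffold that binds JAM proteins, was above it on every array, at 9.06 on the array labelled RBPJ-null, 9.07 on the control Esam(hi) array and 9.06 on the control Esam(lo) array. Magi1 read 6.19 on the array labelled RBPJ-null, 6.41 on the control Esam(hi) array and 6.28 on the control Esam(lo) array. Between the control arrays 10 of the 12 were lower on the Esam(hi) array, 1 was higher and 1 tied. None of them was 2-fold apart, where 11.3% of all genes were 2-fold lower. The median over the 12 was -0.40 (all genes tested: -0.30), and -0.08 with the trend removed (all genes tested: -0.06). The largest differences were those of Msn (-0.96), the moesin that links ICAM tails to actin, Cask (-0.96), a scaffold kinase that binds JAM proteins, Ptpn11 (-0.76), a phosphatase recruited by PECAM-1, and Rdx (-0.70), the radixin relative of moesin. Cask read 10.29 on the array labelled RBPJ-null, 8.84 on the control Esam(hi) array and 9.80 on the control Esam(lo) array. It thus had its highest value on the array labelled RBPJ-null, 1.40-fold above the control Esam(lo) array and 2.73-fold above the control Esam(hi) array. Msn was 2.00-fold higher on the array labelled RBPJ-null than on the control Esam(hi) array. Cask and Msn were thus 2 of the 12 past 2-fold, where 12.9% of all genes were 2-fold higher. With the trend removed the log2 differences were 0.999 for Cask, just under the threshold, and 0.61 for Msn.

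Of 24 related adhesion molecules, 9 were above background, and 2 of these were at least 2-fold lower in control Esam(hi) cells than in control Esam(lo) cells, with and without the level trend. Of all genes, 11.3% were 2-fold lower there, and 5.14% with the trend removed. Pvr (CD155), a nectin-like ligand of the lymphocyte receptors DNAM-1 and TIGIT, read 10.16 on the array labelled RBPJ-null, 8.21 on the control Esam(hi) array and 9.92 on the control Esam(lo) array. L1cam, first known from nerve cells, read 9.02 on the array labelled RBPJ-null, 7.44 on the control Esam(hi) array and 9.16 on the control Esam(lo) array. Each was 3.29-fold lower in control Esam(hi) cells than in control Esam(lo) cells. On the array labelled RBPJ-null Pvr was 3.87-fold and L1cam 2.98-fold higher than on the control Esam(hi) array. In that comparison 12.9% of all genes were 2-fold higher. Mcam, an adhesion molecule of endothelium and pericytes, was above background on the control Esam(hi) array alone, at least 1.44-fold above the control Esam(lo) array. Between the control arrays the median over the 9 was -0.03 (all genes tested: -0.30), and 0.15 with the trend removed (all genes tested: -0.06). Jaml, the JAM-like protein of leukocytes, read 8.55 on the array labelled RBPJ-null, 8.36 on the control Esam(hi) array and 8.55 on the control Esam(lo) array. Cxadr, its epithelial ligand, was below background throughout.

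The tight junction strands to which JAM-A is recruited in epithelia had 2 of 11 genes above background on any array, Cldn3 and Marveld1. Marveld1 read 11.03 on the array labelled RBPJ-null, 10.45 on the control Esam(hi) array and 10.95 on the control Esam(lo) array. Cldn3, a claudin, read 6.54 on the array labelled RBPJ-null, 7.28 on the control Esam(hi) array and 6.79 on the control Esam(lo) array. Neither was 2-fold apart in any comparison. The occludin gene Ocln and the scaffold genes Cgn and Cgnl1 were below background on all 3 arrays.

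**Figure D5:**
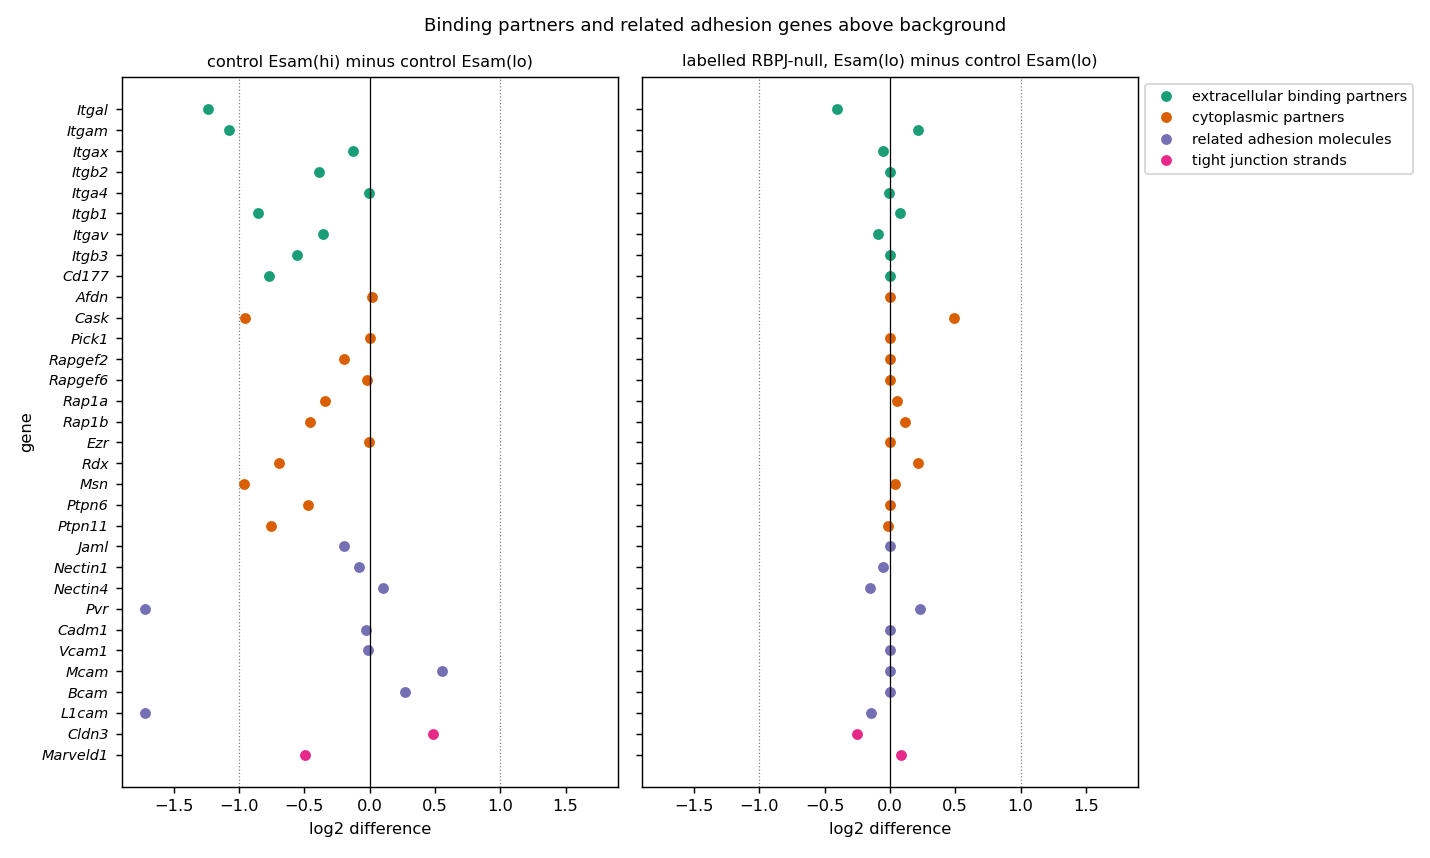
Log2 differences of the binding partners, scaffolds, related adhesion molecules and tight junction genes that were above background on at least 1 array, with the control Esam(hi) minus control Esam(lo) difference at left and the labelled RBPJ-null minus control Esam(lo) difference at right; dotted lines mark 2-fold. Itgal, Itgam, Pvr and L1cam lie beyond the lower 2-fold line at left, and no gene lies beyond either line at right.

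Genes next to the members on the chromosome were read as a description of position, in the RefSeq gene order. Icam4, which follows Icam1 on chromosome 9, was below background on all 3 arrays, at 6.21 on the array labelled RBPJ-null, 6.56 on the control Esam(hi) array and 6.18 on the control Esam(lo) array. Vsig2, the neighbour of Esam and also an adhesion gene of the immunoglobulin superfamily, was below background on all 3 arrays. Milr1, a neighbour of Pecam1 on chromosome 11, read 9.43 on the array labelled RBPJ-null, 8.09 on the control Esam(hi) array and 9.38 on the control Esam(lo) array, a wider spread than that of Pecam1.

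The genes whose pattern over the 3 arrays was most like that of Esam were found by the distance between log2 values after each gene's mean was subtracted. They were sought among 7767 genes above background on the control Esam(hi) array, after provisional symbols, small RNAs and antigen receptor segments were left out, and the median distance was 1.47. Esam was below background on both arrays of Esam(lo) cells, so the distances rest partly on values in the noise and the order of close genes is not read. The smallest distance was that of Frmd5 (0.09), which has a FERM domain, at 6.64 on the array labelled RBPJ-null, 8.19 on the control Esam(hi) array and 6.98 on the control Esam(lo) array. The sodium-calcium exchanger gene Slc8a2 (0.21) and the keratin gene Krt8 (0.22) followed; like Esam, both were above background on the control Esam(hi) array alone. Krtap5-3 (0.28), from a multicopy family in which probes may cross-react, and Ston2 (0.29), an adaptor of endocytosis, were above background on every array. With 3 arrays this likeness is a description only.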

How the data were processed

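RNA of 3 pooled, sorted samples was hybridised to 1 array each. The authors deposited RMA log2 values made in Affymetrix Expression Console, per the submitters' processing notes; which arrays were normalized together is not known. Of 35556 probe sets, the 21789 annotated to 1 gene were used (1621 name several genes and 12146 none), the brightest where a gene had several (999 of 19938 genes).

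Log2 differences between arrays were computed with pandas 2.3.3, numpy 2.4.6 and Python 3.11.15, and the level trend with lowess (statsmodels 0.14.6, span 0.3). With 1 array per group there is no test. The counting was tested on simulated data with changes placed in bright genes only, so that test does not cover calls near background, such as that of Esam. The members, gene lists and rules were chosen with earlier results of these data known. By rule, the text names the 8 members, up to 4 genes per list with the largest differences, genes that check the samples and the 5 genes most like Esam (small RNAs, RNase P and MRP RNAs among them, left out). Neighbours and some further list and marker genes were named after their values were seen. Alternatives were other filters on dim genes, median centring, quantile normalization, trend removal, thresholds of 1.5-fold and 3-fold, and the mean over probe sets. Proteins were not compared here.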

Additional observations from a re-analysis of the deposited data

How the results depend on the processing

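No paired analysis was possible because each group has 1 array. Esam kept its sign under every scaling tried: its Esam(hi) minus Esam(lo) difference between controls ranged from 1.12 to 1.29, and its labelled RBPJ-null minus control Esam(hi) difference from -1.73 to -1.55. F11r kept its sign too (-0.92 to -0.68 and 0.55 to 0.79). The count of 1 member 2-fold apart in each of these comparisons became 0 under the stricter filter (75th percentile of each array). Esam does not pass that filter. Under it 17.5% of all genes were 2-fold apart between the control arrays, and 19.7% in the other comparison. At 1.5-fold the count became 2, where F11r joins Esam. Between the control arrays 31.1% of all genes were 1.5-fold lower in Esam(hi) cells and 4.28% higher. On the array labelled RBPJ-null 32.4% were 1.5-fold higher than on the control Esam(hi) array and 5.67% lower. At 3-fold the control comparison had 0 members, where 2.2% of all genes were apart. The members' median difference moved by over 0.1 as follows. For control Esam(hi) minus control Esam(lo) it was 0.0021 with no filter on dim genes, -0.27 with the stricter filter, -0.24 with median centring, 0.032 with quantile normalization and 0.16 with the level trend removed. For labelled RBPJ-null minus control Esam(hi) it was -0.011 with no filter, 0.22 with the stricter filter, 0.23 with median centring, -0.061 with quantile normalization and -0.11 with the trend removed. These medians cover 8 members with no filter, 3 with the stricter filter and 6 otherwise. The median of all genes tested moved too. For control Esam(hi) minus control Esam(lo) it went from -0.30 to -0.40 with median centring, -0.11 with quantile normalization and -0.06 with the trend removed. For labelled RBPJ-null minus control Esam(hi) it went from 0.31 to 0.42, 0.10 and 0.05. The part of each in the members' moves was not tested. Pecam1, Icam1 and Icam2 changed sign with the scaling in both comparisons, and Alcam did in the first; none of these 4 was past 2-fold. Signal close to background limits Esam, Icam2 and, on the control Esam(hi) array, F11r.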
